A study of Mus musculus with 12 samples.

Results

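The genes described here are 38 imprinted mouse genes, listed by symbol and arranged by imprinted cluster and by the parental allele from which each is known to be expressed. Each gene was represented by the probe set with the highest mean over the 12 arrays among those that name it alone. Of the 38 genes, 34 had such a probe set and 30 of these passed a filter that kept the 60% of probe sets with the highest means, so 30 genes were tested among 13067. The 30 comprised 17 genes expressed from the paternal allele, 12 from the maternal allele, and Gnas, whose allele depends on the transcript. No probe set named H19, Rtl1, Dio3 or Zrsr1 alone, and the probe sets of Usp29, Zim1, Kcnq1 and Snrpn lay below the filter.

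RNA came from mouse ES cells D3, an embryonic stem cell line kept on mouse embryonic fibroblast feeders that received MMC. The cells were differentiated as embryoid bodies, in which stem cells aggregate and form derivatives of the germ layers. The control day0 group is the undifferentiated start. There were 4 groups of 3 arrays. The control day0 and control day8 groups had no agent, and BPA day8 and NP day8 had the agents of those names, which the labels neither spell out nor give a dose for. Nothing states that replicates came from separate cultures, in which case p-values would reflect spread that may be technical. Values are log2 signals as deposited, changes are differences of group means with their standard errors (SE) from a model over all 12 arrays, and p-values are adjusted over the 13067 genes.

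An imprinted gene is transcribed from only the maternally or only the paternally inherited copy. Most imprinted genes lie in clusters governed by an imprinting control region, a stretch of DNA that is methylated on the copy from only the egg or only the sperm and keeps that mark through the wave of demethylation in the early embryo. Many paternally expressed genes promote growth of the embryo and placenta, many maternally expressed genes restrain it, and several clusters hold a long noncoding RNA that silences its neighbours on the same chromosome. Embryonic stem cells carry imprints from the embryo they came from, and cultured lines are known to lose or gain them. The array measures the sum over both alleles, so none of the values below shows which allele was transcribed, and in such mixed cultures fewer cells of a type and less RNA per cell cannot be told apart.

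The sequences below are shown for neighbours expressed from opposite alleles, Dlk1 with Meg3 and Igf2r with Airn, and for Plagl1 and Mest, whose known imprinting control regions lie at their own starts. They are the 250 bases before the annotated start in RefSeq (GRCm38.p6), with capitals marking TGCCGC or its reverse complement GCGGCA, a hexamer known as the core of the motif of ZFP57, the zinc finger protein that holds methylation at imprinting control regions. Dlk1 and Meg3, expressed from opposite alleles, lie on chromosome 12 at chr12:109452573-109452822 and chr12:109540746-109540995, both on the plus strand.
Dlk1: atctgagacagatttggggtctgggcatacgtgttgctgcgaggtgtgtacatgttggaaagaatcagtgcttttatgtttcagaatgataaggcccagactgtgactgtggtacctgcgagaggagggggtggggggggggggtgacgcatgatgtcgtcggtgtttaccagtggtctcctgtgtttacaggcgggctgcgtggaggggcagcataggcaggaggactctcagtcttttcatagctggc
Meg3: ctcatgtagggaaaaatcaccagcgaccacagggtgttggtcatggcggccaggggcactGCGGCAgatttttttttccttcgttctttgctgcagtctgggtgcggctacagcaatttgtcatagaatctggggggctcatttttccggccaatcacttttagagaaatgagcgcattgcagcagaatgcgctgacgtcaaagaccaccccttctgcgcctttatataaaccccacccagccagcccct
Igf2r starts on the minus strand of chromosome 17 (chr17:12769707-12769956), and Airn starts on the plus strand (chr17:12741061-12741310) and is known to run antisense through Igf2r.
Igf2r: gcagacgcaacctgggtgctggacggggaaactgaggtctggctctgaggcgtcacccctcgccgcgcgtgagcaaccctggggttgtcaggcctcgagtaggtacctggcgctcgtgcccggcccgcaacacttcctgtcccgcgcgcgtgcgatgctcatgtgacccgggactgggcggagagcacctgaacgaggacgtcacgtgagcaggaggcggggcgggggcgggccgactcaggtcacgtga
Airn: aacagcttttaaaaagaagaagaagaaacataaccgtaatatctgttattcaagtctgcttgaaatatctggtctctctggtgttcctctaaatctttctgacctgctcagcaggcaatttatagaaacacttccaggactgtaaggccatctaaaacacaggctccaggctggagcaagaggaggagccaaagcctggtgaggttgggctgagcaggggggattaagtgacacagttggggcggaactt
Plagl1 (chr10:13090582-13090831) and Mest (chr6:30737800-30738049, at 1 of its 3 annotated starts) are both on the plus strand and expressed from the paternal allele.
Plagl1: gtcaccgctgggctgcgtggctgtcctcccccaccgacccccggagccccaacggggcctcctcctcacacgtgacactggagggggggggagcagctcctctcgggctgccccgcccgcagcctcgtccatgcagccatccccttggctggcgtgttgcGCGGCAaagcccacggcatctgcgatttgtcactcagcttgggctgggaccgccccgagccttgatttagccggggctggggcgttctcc
Mest: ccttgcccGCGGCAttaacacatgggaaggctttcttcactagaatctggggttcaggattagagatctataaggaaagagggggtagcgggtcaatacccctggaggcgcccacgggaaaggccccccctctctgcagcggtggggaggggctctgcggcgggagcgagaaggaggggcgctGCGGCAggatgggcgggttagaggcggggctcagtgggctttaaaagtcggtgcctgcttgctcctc
These windows held 8 CpG dinucleotides for Dlk1, 10 for Meg3, 27 for Igf2r, 2 for Airn, 19 for Plagl1 and 14 for Mest. The hexamer occurred 1 time for Meg3, 1 time for Plagl1 and 2 times for Mest, and was not found in the windows of Dlk1, Igf2r and Airn. Over windows of 300 bases, 250 before and 50 after each start, 10 of the 31 imprinted genes with an entry (32.3%) held it in at least 1 window, against 13.1% of 27025 genes. By window, the shares were 11 of 48 (22.9%) and 11.6% of 32851. Windows on the chromosome of Impact were left out for the imprinted genes and kept for all genes. The imprinted genes' windows were also richer in CpG, which the hexamer contains: the median over genes of the highest count in a gene's windows was 15 for them and 8 for all genes. The part of CpG content in the share was not tested. A match is a description of letters, not a binding site.

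Facts of the whole cultures set the frame for the imprinted genes. Summed over 12 markers, the linear signal of pluripotent cells was 30206 to 30837 on the control day0 arrays, 3582 to 7286 on control day8, 21277 to 22071 with BPA and 17390 to 23141 with NP, and all 12 markers passed the test in the comparisons of control day8 with each of the other 3 groups. Markers of feeder fibroblasts summed to 5511 to 6890 at day 0, 2796 to 3584 on control day8, 883 to 1021 with BPA and 810 to 1018 with NP. Cardiac muscle markers summed to 177 to 201, 4869 to 7772, 474 to 866 and 446 to 2439 in the same order, and vascular endothelium markers to 84 to 123, 691 to 794, 253 to 296 and 208 to 294. Visceral endoderm markers lay at 169 to 219 at day 0, 10515 to 20470 on control day8, 9198 to 13128 with BPA and 15846 to 18295 with NP. Trophoblast markers lay at 762 to 1273, 11251 to 13686, 10702 to 14301 and 7455 to 12856. Neural markers lay at no more than 592 on any array and skeletal muscle markers at no more than 245. Of the endoderm and cardiac markers, Afp, Ttr, Tnnt2, Myh7, Hand2 and Tnni1 were under the background level on all control day0 arrays. Of the 10 vascular markers measured, Cdh5, Tie1, Erg and Emcn were under it on all control day0 arrays. With BPA these were Tie1 and Emcn, and with NP Tie1 and Erg. Of the feeder markers, Thy1, S100a4 and Mmp3 had control day8 means of 2.97, 3.09 and 1.60, under the background level. The background level was the highest value of bacterial control probe sets, a log2 signal of 3.41. Precision is limited by the 3 arrays of each group. Full separation of 3 arrays from 3 has an exact permutation p of 0.1 at best, over 20 relabellings. Overlap of arrays is therefore given below as a description, and the share of all genes without overlap was not computed.

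From day 0 to day 8 of control culture, the listed imprinted genes mostly rose. Of the 30 tested, 20 rose, 1 fell and 9 did not pass the test. The share called was 70.0%, against 48.7% of all genes tested in either direction, 28.3% called higher and 20.5% called lower. Of the imprinted genes, 18 passed the test with a change of at least 2-fold, against 23.0% of all genes. The median change was 1.64 on the log2 scale, beside 0.12 over all genes, a median that moved to 0.01 under median centring and 0.009 under quantile normalization. Among the paternally expressed genes 13 of 17 rose and 1 fell, with a median of 2.27. Among the maternally expressed genes 6 of 12 rose and none fell, with a median of 0.48. Dlk1, Asb4, Igf2, Plagl1, Peg3 and Cdkn1c rose by the most. The difference between the alleles was not tested, and the part of cell type markers in these counts was not tested. The 30 genes were on a list chosen with earlier results of these data known. Of 39 tested genes on a separate list of other imprinted genes, 10 rose and 10 fell (51.3% called, median 0.13). Over the same interval 12 of 12 pluripotent and 7 of 10 feeder markers fell (2 rose), while 12 of 12 endoderm, 9 of 12 cardiac, 7 of 8 vascular and 7 of 10 trophoblast markers rose.

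With BPA, 12 of the 30 imprinted genes were lower than on control day8, 0 were higher and 18 did not pass the test. The share called was 40%, against 22.2% of all genes in either direction, 10.2% called lower and 12% called higher. Of the imprinted genes, 11 passed with a change of at least 2-fold, against 9.18% of all genes. The median was -0.69, against 0.04 over all genes. Of the paternally expressed genes 9 of 17 fell, with a median of -1.01, and of the maternally expressed genes 2 of 12, Igf2r and Asb4, with a median of -0.22. The remaining gene that fell was Gnas. At an unadjusted p under 0.05, 18 of the 30 passed, beside 4651 of the 13067 genes tested.

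With NP, 13 of the 30 were lower than on control day8, 0 were higher and 17 did not pass the test. The share called was 43.3%, against 14.2% of all genes in either direction, 6.28% called lower and 7.9% called higher. By at least 2-fold, 10 of them passed, against 5.85% of all genes. The median was -0.57, against 0.01 over all genes. The paternally expressed genes gave 10 falls of 17, with a median of -0.84, and the maternally expressed genes 2 of 12, again Igf2r and Asb4, with a median of -0.06. This count was less firm than that with BPA: leaving out control day8 replicate 1 gave 7, control day8 replicate 2 gave 8, and NP day8 replicate 2 or 3 gave 7 each. With only the compared groups in the fit it was also 7, and the calls of Igf2, Igf2r, Airn, Peg3, Sgce and Slc38a4 ended. The comparisons of BPA and of NP with control day8 share the control day8 arrays, which also enter the comparison with day 0, so the changes are set side by side below and no overlap between them is read. Among markers tested against control day8, 12 of 12 of pluripotent cells rose with each agent, 7 of 10 of feeder fibroblasts fell with each, cardiac markers fell for 9 of 12 with BPA and 8 of 12 with NP, and vascular markers for 3 of 8 and 4 of 8. Thy1, S100a4 and Mmp3, the feeder markers that fell most from day 0, did not pass with either agent. Of the feeder markers that fell with the agents, Pdgfra and Pdgfrb had risen by 3.38 and 0.99 from day 0. The part of all these markers in the falls of imprinted genes was not tested.

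**Figure D1:**
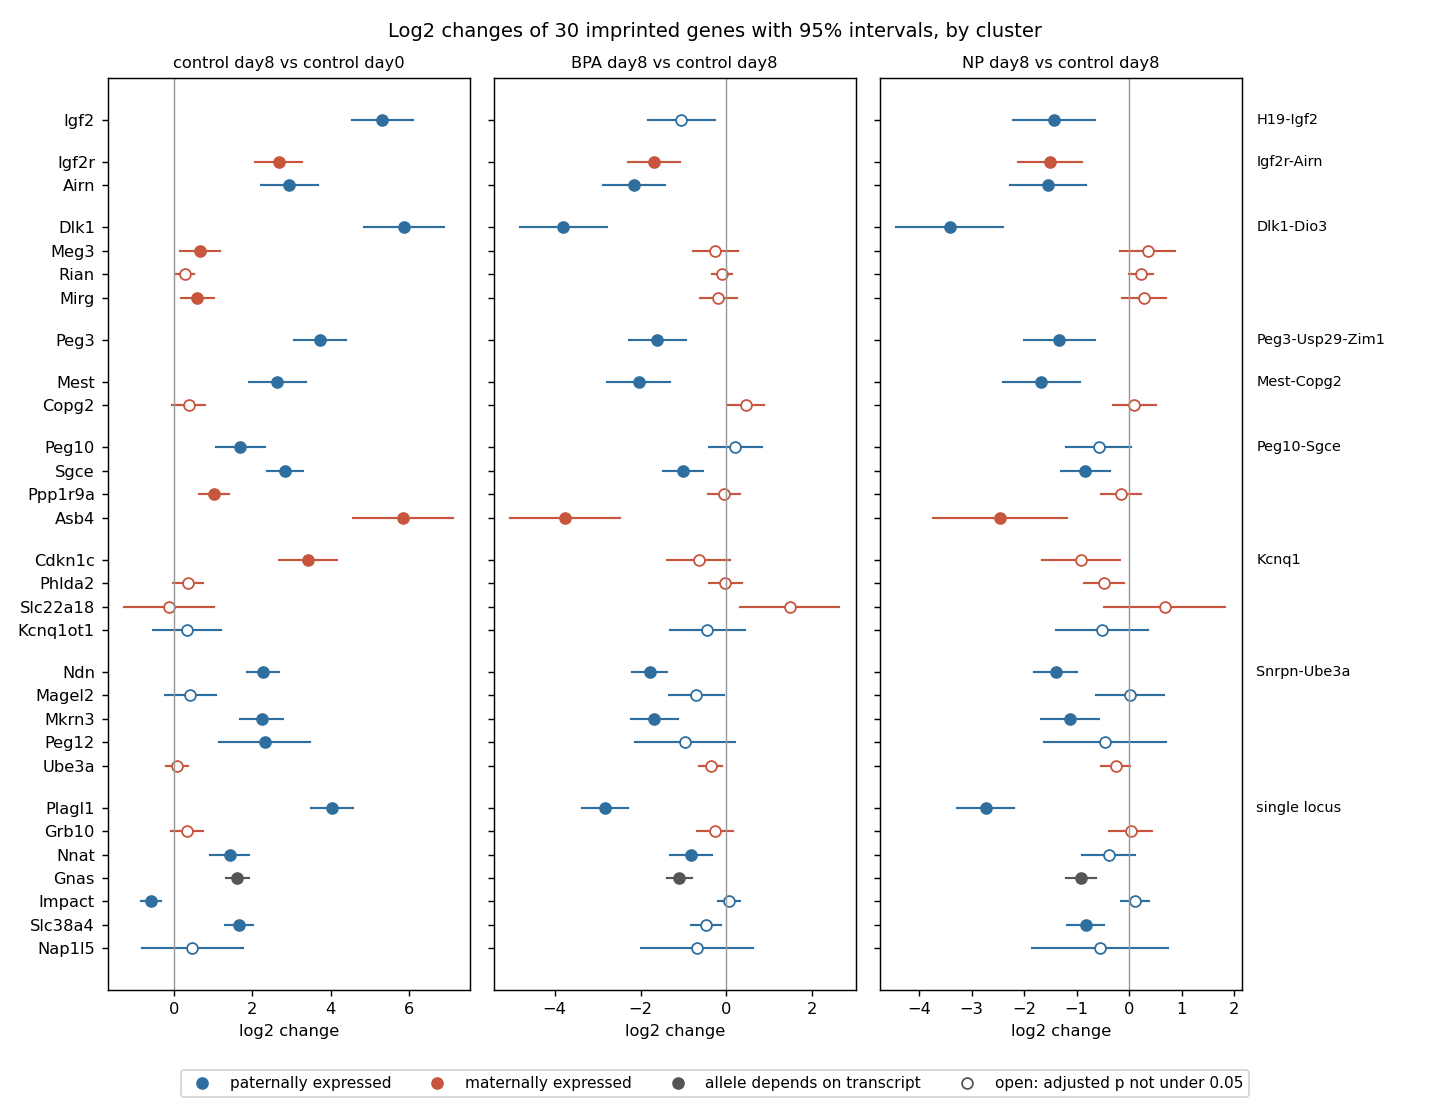
Log2 change of each of the 30 tested imprinted genes (x axis) with its 95% interval, in rows by cluster, for control day8 against control day0, BPA day8 against control day8 and NP day8 against control day8. Filled points passed an adjusted p of 0.05, blue is paternal, red maternal and grey allele dependent on transcript; 20 filled points lie above 0 and 1 below in the first panel, and all 12 and all 13 filled points of the others lie below 0. The point of Asb4 from day 0 is the fitted change of 5.86. Its day 0 mean lay under the background level, so the text gives a rise of at least 4.70.

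In the H19-Igf2 cluster, Igf2 encodes a fetal growth factor expressed from the paternal allele, and H19 is a maternally expressed long noncoding RNA that shares enhancers with it. Igf2 read 7.24, 7.51 and 8.13 on the control day0 arrays, 13.06, 12.81 and 12.95 on control day8, 11.61, 12.01 and 12.05 with BPA, and 12.09, 11.79 and 10.68 with NP. All control day8 arrays lay above all arrays of the other groups, and every day 8 array lay above every day 0 array. Igf2 rose by 5.32 ± 0.35 (SE, n = 3 arrays a group), a 39.9-fold rise with an adjusted p of 7.23e-06 in limma's moderated test. Against control day8 it was 1.05 ± 0.35 lower with BPA, which did not pass the test (adjusted p = 0.0568, 95% interval -1.83 to -0.27), and it fell by 1.42 ± 0.35 with NP (adjusted p = 0.0262). The NP call ended without any of the 3 control day8 arrays and without NP day8 replicates 2 or 3, with changes between -1.56 and -1.01 and adjusted p-values from 0.0534 to 0.0859.

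H19 was measured by a probe set that the annotation lists with both H19 and Mir675, a microRNA gene inside H19, and it was fitted in an added model that kept such probe sets. This probe set read 7.93, 8.16 and 9.31 at day 0, 12.47, 12.39 and 12.50 on control day8, 11.78, 11.95 and 11.89 with BPA, and 12.04, 11.75 and 11.10 with NP. The group order was that of Igf2, with control day8 above both agents and both agents above day 0, with no overlap at these steps. It rose by 3.99 ± 0.34 (adjusted p = 2.208e-05 by limma), and with BPA (-0.58 ± 0.34, adjusted p = 0.257) and NP (-0.83 ± 0.34, adjusted p = 0.142) it did not pass the test. The mature products of Mir675, on the minus strand of chromosome 7 in GRCm38.p6, are given here because the H19 transcript is their precursor, with the seed, bases 2 to 8, in capitals.
mmu-miR-675-3p: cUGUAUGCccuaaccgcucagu
mmu-miR-675-5p: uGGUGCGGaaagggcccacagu
The array gives no level for the mature forms, and their seeds differ.

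In the Igf2r-Airn cluster, Igf2r is the maternally expressed receptor that carries IGF2 to the lysosome, and Airn is the paternally expressed antisense RNA that silences it on the paternal copy. Igf2r read 7.85, 7.59 and 7.88 at day 0, 10.76, 10.59 and 9.99 on control day8, 9.06, 8.55 and 8.69 with BPA, and 9.47, 8.78 and 8.56 with NP. Airn read 4.11, 4.01 and 4.14 at day 0, 7.05, 7.74 and 6.29 on control day8, 5.25, 4.72 and 4.67 with BPA, and 5.82, 5.29 and 5.35 with NP. Both genes were highest on every control day8 array and lowest on every day 0 array. Igf2r rose by 2.68 ± 0.27 (adjusted p = 4.79e-05), fell by 1.68 ± 0.27 with BPA (adjusted p = 0.00269) and fell by 1.51 ± 0.27 with NP (adjusted p = 0.00742). Airn rose by 2.94 ± 0.32 (adjusted p = 7.73e-05), fell by 2.15 ± 0.32 with BPA (adjusted p = 0.00203) and fell by 1.54 ± 0.32 with NP (adjusted p = 0.0145). The NP call of Airn ended without control day8 replicate 1 and without NP day8 replicates 2 or 3 (changes -1.53 to -1.44, adjusted p 0.052 to 0.0579). The log2 ratio of Igf2r to Airn on the same array shifted by -0.27 ± 0.29 from day 0 to day 8, with overlapping arrays, by 0.47 ± 0.29 with BPA, without overlap, and by 0.04 ± 0.31 with NP, with overlap. All 4 probe sets of Airn past the filter rose from day 0, by 2.65 to 4.69 in group mean, and both of Igf2r, by 2.42 and 2.68. With BPA those of Airn were lower by differences of -3.72 to -1.90 and those of Igf2r by -1.68 and -1.26. The Airn probe set with 4.69 and -3.72 had a mean of 3.08 and another a mean of 3.17, both under the background level. The Airn probe sets above it differed by 2.65 and 2.94 from day 0 and by -1.90 and -2.15 with BPA. Where probes of the pair lie on shared sequence, the signal depends on the strand of the probe, which was not examined.

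In the Dlk1-Dio3 cluster the genes assigned to opposite alleles changed by unequal amounts. Dlk1, a paternally expressed membrane protein related to Notch ligands, read 4.21, 4.34 and 5.54 at day 0, 10.96, 10.41 and 10.40 on control day8, 7.06, 7.11 and 6.19 with BPA, and 8.01, 6.64 and 6.86 with NP. Control day8 lay above every other array and day 0 below every other array, while the agents overlapped each other. Dlk1 rose by 5.89 ± 0.45, or 59.2-fold (adjusted p = 1.37e-05), the largest rise among the 30 genes as fitted. It fell by 3.80 ± 0.45 with BPA (adjusted p = 0.000722) and by 3.41 ± 0.45 with NP (adjusted p = 0.00196), to 0.0718 and 0.0938 of the control day8 signal, and still lay 2.09 ± 0.45 and 2.47 ± 0.45 above day 0.

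The maternally expressed noncoding RNAs of the same cluster, Meg3, Rian and Mirg, which are known as hosts of microRNAs and small nucleolar RNAs, did not pass the test with either agent against control day8. Meg3 read 9.55, 9.63 and 9.39 at day 0, 10.05, 9.94 and 10.56 on control day8, 9.85, 9.56 and 10.36 with BPA, and 10.36, 10.42 and 10.83 with NP. Rian read 9.13, 9.08 and 8.84 at day 0, 9.44, 9.24 and 9.20 on control day8, 9.17, 9.17 and 9.23 with BPA, and 9.54, 9.55 and 9.46 with NP. Mirg read 5.27, 5.28 and 5.49 at day 0, 5.92, 5.68 and 6.21 on control day8, 5.93, 5.35 and 5.97 with BPA, and 6.31, 6.11 and 6.26 with NP. All day 8 control arrays of each gene lay above its day 0 arrays, and BPA overlapped control day8 for each gene. From day 0, Meg3 rose by 0.66 ± 0.23 (adjusted p = 0.0391), Mirg rose by 0.59 ± 0.19 (adjusted p = 0.0259) and Rian was 0.28 ± 0.10 higher (adjusted p = 0.0518). The call of Meg3 ended without any 1 of 7 arrays, which were the 3 control day0 arrays, control day8 replicates 1 and 3, BPA day8 replicate 1 and NP day8 replicate 2 (changes 0.47 to 0.73, adjusted p 0.0512 to 0.132). That of Mirg ended without control day0 replicates 1 or 2 or control day8 replicates 1 or 3 (changes 0.45 to 0.60, adjusted p 0.0575 to 0.0878), and both ended when the probe sets of a gene were averaged. With BPA the changes of Meg3, Rian and Mirg were -0.26, -0.10 and -0.19 and with NP 0.35, 0.22 and 0.29. Set against day 0, all 3 were higher with NP, Meg3 by 1.01 ± 0.23 (adjusted p = 0.0091), Rian by 0.50 ± 0.10 (adjusted p = 0.00597) and Mirg by 0.88 ± 0.19 (adjusted p = 0.00659), and none passed with BPA (0.40, 0.18 and 0.40). The first of these calls ended when the Meg3 probe sets were averaged (0.40, adjusted p = 0.115). For BPA against control day8, the 95% intervals of Meg3, Rian and Mirg were -0.78 to 0.26, -0.33 to 0.14 and -0.61 to 0.23. None of these reaches the fall of Dlk1.

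On the same arrays, the log2 ratio of Dlk1 to Meg3 shifted by 5.23 ± 0.58 from day 0 to control day8, by -3.54 ± 0.61 with BPA and by -3.77 ± 0.60 with NP. No array of a group reached the range of the other group in any of these comparisons. This pair, like the other within-cluster pairs, was chosen after its values were seen, so the shifts are a description with no test. The 11 Meg3 probe sets past the filter spread around 0, with differences from day 0 to day 8 of -0.69 to 0.72, 6 of them above 0 and 5 below. With BPA they ran from -1.11 to 1.11, and with NP from -0.42 to 0.74. Those with means of 7.52 to 10.04 ran from -0.09 to 0.72 from day 0. These brighter ones ran from -0.47 to -0.20 with BPA and from 0.10 to 0.39 with NP. The rest had means of 3.77 to 4.88, nearer the background level. RefSeq places 3 mature microRNAs within Meg3, 6 within Rian and 19 within Mirg, none of which the array reads in mature form. The chosen Meg3 probe set has the suffix x_at and that of Dlk1 s_at, by which the manufacturer marks probes that may match other transcripts.

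**Figure D2:**
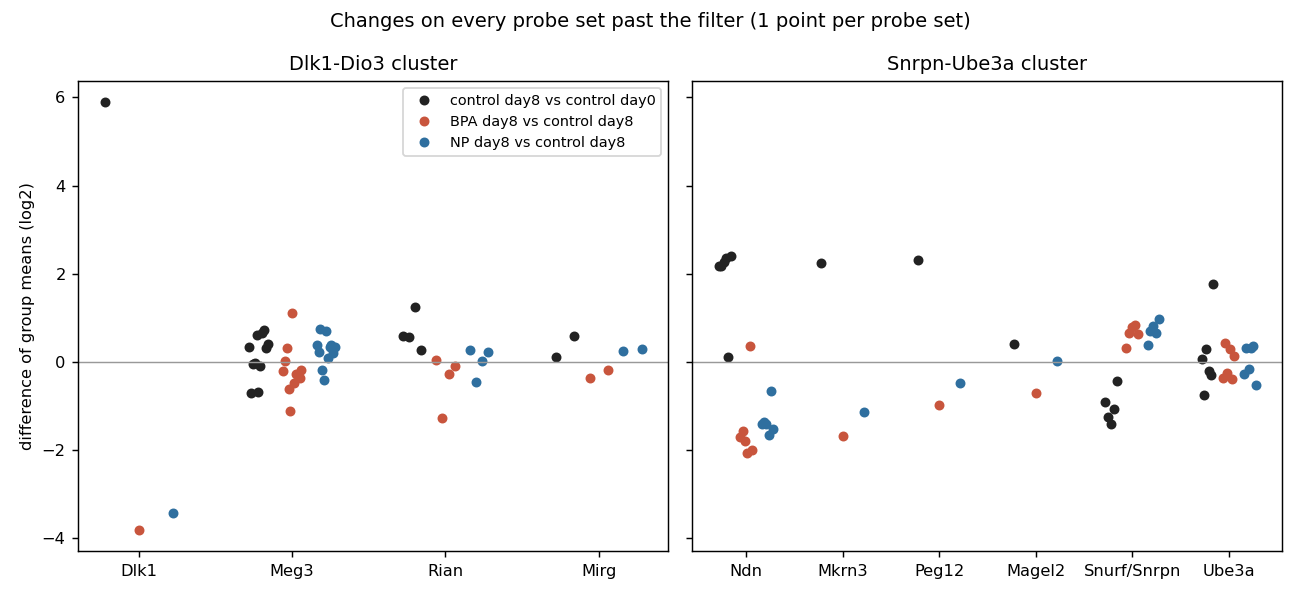
Difference of group means in log2 signal (y axis) for every probe set past the filter, 1 point per probe set, for the genes of the Dlk1-Dio3 cluster (left) and the Snrpn-Ube3a cluster (right) in 3 comparisons. The 11 Meg3 points of control day8 against day 0 lie between -0.69 and 0.72 while Dlk1 lies at 5.89, and on the right all 5 points of Snurf/Snrpn lie below 0 where those of Ndn, Mkrn3 and Peg12 lie above.

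Peg3, a paternally expressed zinc finger protein of the Peg3-Usp29-Zim1 cluster, read 8.60, 8.74 and 8.99 at day 0, 12.71, 12.66 and 12.17 on control day8, 10.92, 11.20 and 10.59 with BPA, and 11.82, 11.14 and 10.59 with NP. Control day8 was highest and day 0 lowest with no overlap, and the agents overlapped each other. Peg3 rose by 3.74 ± 0.30, or 13.4-fold (adjusted p = 1.56e-05), and its 3 probe sets past the filter rose by 3.74 to 4.42 in group mean. It fell by 1.61 ± 0.30 with BPA (adjusted p = 0.00516) and by 1.33 ± 0.30 with NP (adjusted p = 0.0191). The NP call ended without control day8 replicates 1 or 2 and without NP day8 replicates 2 or 3 (changes -1.31 to -1.03, adjusted p 0.057 to 0.0714). Zim1, a maternally expressed zinc finger gene below the filter, had 4.97, 5.26 and 4.77 on control day8, above all its other 9 arrays, of which the highest was 4.05. Usp29, a ubiquitin protease gene that is paternally expressed, reached at most 3.74 on any array.

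In the Mest-Copg2 cluster, Mest is a paternally expressed enzyme of the hydrolase fold and Copg2, a coatomer subunit, is its maternally expressed neighbour on the opposite strand. Mest read 9.37, 9.36 and 9.36 at day 0, 12.24, 12.12 and 11.65 on control day8, 10.11, 10.51 and 9.27 with BPA, and 10.83, 10.31 and 9.86 with NP. Copg2 read 7.04, 7.43 and 7.26 at day 0, 7.46, 7.85 and 7.54 on control day8, 8.10, 7.72 and 8.38 with BPA, and 7.85, 7.71 and 7.58 with NP. Mest stood apart on the control day8 arrays, whereas Copg2 overlapped between control day8 and each agent. Mest rose by 2.64 ± 0.33 (adjusted p = 0.000157), fell by 2.05 ± 0.33 with BPA (adjusted p = 0.00268) and fell by 1.67 ± 0.33 with NP (adjusted p = 0.0109). Copg2 did not pass the test from day 0 (0.37 ± 0.18), with BPA (0.45 ± 0.18) or with NP (0.10 ± 0.18). The log2 ratio of Mest to Copg2 shifted by 2.27 ± 0.23, -2.50 ± 0.59 and -1.77 ± 0.29 in these comparisons, without overlap. Set against day 0, Copg2 was 0.83 ± 0.18 higher with BPA (adjusted p = 0.0077 by limma) and did not pass with NP (0.47 ± 0.18).

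The Peg10-Sgce cluster held 4 tested genes, and all 4 rose from day 0. Asb4, a maternally expressed adaptor of ubiquitin ligases known from blood vessel formation, read 1.06, 2.27 and 3.77 at day 0, of which 2 arrays were under the background level. It read 8.58, 8.24 and 7.85 on control day8, 5.04, 4.33 and 4.02 with BPA, and 5.99, 5.54 and 5.77 with NP. The 4 groups did not overlap anywhere. Asb4 rose by at least 4.70, since its day 0 mean was under the background level. The change as fitted was 5.86 ± 0.57 (adjusted p = 4.13e-05 by limma). Asb4 fell by 3.76 ± 0.57 with BPA (adjusted p = 0.00212) and by 2.46 ± 0.57 with NP (adjusted p = 0.0218). The NP call ended without control day8 replicates 1 or 2 and without NP day8 replicates 2 or 3 (changes -2.46 to -2.28, adjusted p 0.063 to 0.0789). Of 8 tested vascular markers 3 fell with BPA and 4 with NP, and their part in the level of Asb4 was not tested.

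Sgce, the paternally expressed epsilon-sarcoglycan, and Peg10, a paternally expressed gene of retroviral origin needed in the placenta, start side by side in opposite directions. Sgce read 6.32, 6.53 and 6.94 at day 0, 9.55, 9.44 and 9.29 on control day8, 8.39, 8.54 and 8.33 with BPA, and 8.99, 8.58 and 8.21 with NP. Peg10 read 4.17, 3.58 and 4.24 at day 0, 5.78, 5.40 and 5.88 on control day8, 5.80, 5.58 and 6.31 with BPA, and 5.50, 5.17 and 4.65 with NP. Both were lowest on the day 0 arrays, but Peg10 with BPA overlapped control day8 and Sgce did not. Sgce rose by 2.83 ± 0.21 (adjusted p = 1.12e-05), fell by 1.01 ± 0.21 with BPA (adjusted p = 0.00861) and fell by 0.84 ± 0.21 with NP (adjusted p = 0.0286). The NP call of Sgce ended without control day8 replicates 1 or 2 and without NP day8 replicates 2 or 3 (changes -0.83 to -0.64, adjusted p 0.077 to 0.097), and also with median centring. Peg10 rose by 1.69 ± 0.28 (adjusted p = 0.000799) and did not pass the test with BPA (0.21 ± 0.28) or NP (-0.58 ± 0.28). Their log2 ratio shifted by 1.14 ± 0.30 from day 0 and by -1.22 ± 0.33 with BPA, without overlap, and by -0.26 ± 0.19 with NP, with overlap. Ppp1r9a, the maternally expressed actin-binding neurabin, read 6.30, 6.44 and 5.94 at day 0, 7.32, 7.46 and 6.96 on control day8, 7.18, 7.33 and 7.05 with BPA, and 7.17, 7.16 and 6.95 with NP. It rose by 1.02 ± 0.17 (adjusted p = 0.000802), and its day 8 groups overlapped. The call ended when its 5 probe sets, with differences of -0.67 to 1.34, were averaged. The one with 1.34 had a mean of 3.30, under the background level.

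In the Kcnq1 cluster 1 of the 4 tested genes, Cdkn1c, rose from day 0, and none passed the test with either agent. Cdkn1c, a maternally expressed inhibitor of cyclin-dependent kinases, read 7.37, 7.36 and 7.10 at day 0, 10.78, 10.78 and 10.56 on control day8, 10.05, 9.84 and 10.28 with BPA, and 10.34, 10.16 and 8.85 with NP. All day 8 arrays were above day 0, and control day8 was above both agents. Cdkn1c rose by 3.43 ± 0.33, or 10.8-fold (adjusted p = 3.85e-05), and was 0.65 ± 0.33 lower with BPA (adjusted p = 0.195) and 0.92 ± 0.33 lower with NP (adjusted p = 0.0973), neither of which passed. Phlda2, a maternally expressed gene that restrains placental growth, read 9.88, 9.93 and 10.05 at day 0, 10.26, 10.21 and 10.43 on control day8, 10.27, 10.12 and 10.44 with BPA, and 9.96, 10.07 and 9.41 with NP. Its NP arrays lay below the control day8 arrays, and its BPA arrays overlapped them. Phlda2 did not pass the test in any of these comparisons (0.35, -0.02 and -0.48, each ± 0.17). The log2 ratio of Cdkn1c to Phlda2 shifted by 3.08 ± 0.20 from day 0 and by -0.63 ± 0.14 with BPA, without overlap, and by -0.44 ± 0.31 with NP, with overlap.

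Kcnq1ot1, the paternally expressed antisense RNA that silences this cluster, read 6.36, 6.20 and 5.23 at day 0, 6.31, 7.01 and 5.45 on control day8, 5.81, 5.77 and 5.86 with BPA, and 5.45, 5.77 and 5.99 with NP. Its groups overlapped throughout, and its changes of 0.33, -0.44 and -0.52 (each ± 0.39) did not pass. Its 4 probe sets past the filter disagreed from day 0, with differences of -0.14 to 3.64. The one with 3.64 had a mean of 3.02, under the background level, and the others ran from -0.14 to 0.87. Slc22a18, a maternally expressed transporter near the background level, read 3.63, 3.80 and 3.51 at day 0, 2.32, 3.87 and 4.39 on control day8, 4.55, 5.12 and 5.33 with BPA, and 4.98, 4.10 and 3.52 with NP. The BPA arrays lay above the control day8 arrays (1.47 ± 0.52, adjusted p = 0.0693), which did not pass. Kcnq1, the potassium channel gene, reached at most 4.45 and was not tested.

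The Snrpn-Ube3a cluster, which matches the human region of Prader-Willi and Angelman syndromes, gave opposite directions among its paternally expressed genes. Ndn, which encodes a protein of the MAGE family that restrains cell division, read 8.60, 8.53 and 8.73 at day 0, 11, 10.76 and 10.90 on control day8, 9.16, 9.28 and 8.85 with BPA, and 9.89, 9.26 and 9.31 with NP. Mkrn3, a zinc finger ubiquitin ligase, read 4.89, 4.83 and 4.35 at day 0, 6.99, 7.21 and 6.59 on control day8, 4.80, 5.65 and 5.29 with BPA, and 5.92, 5.85 and 5.63 with NP. Peg12, related to the FRAT regulators of Wnt signalling, read 4.32, 2.45 and 3.65 at day 0, 6.52, 6.0 and 4.86 on control day8, 4.37, 5.17 and 4.95 with BPA, and 5.69, 5.17 and 5.11 with NP. Control day8 stood above day 0 for each of these genes and above both agents for Ndn and Mkrn3, while Peg12 overlapped. Ndn rose by 2.27 ± 0.18 (adjusted p = 1.56e-05), fell by 1.79 ± 0.18 with BPA (adjusted p = 0.000383) and fell by 1.40 ± 0.18 with NP (adjusted p = 0.00169). Mkrn3 rose by 2.24 ± 0.24 (adjusted p = 7.35e-05), fell by 1.68 ± 0.24 with BPA (adjusted p = 0.00172) and fell by 1.13 ± 0.24 with NP (adjusted p = 0.0166). The NP call of Mkrn3 ended without control day8 replicates 1 or 2 and without NP day8 replicates 2 or 3 (changes -1.15 to -0.99, adjusted p 0.0508 to 0.0622). Peg12 rose by 2.32 ± 0.52 (adjusted p = 0.00465) and did not pass with BPA (-0.96 ± 0.52) or NP (-0.47 ± 0.52). The 6 Ndn probe sets past the filter were higher by 0.12 to 2.40 on control day8 than at day 0 in group mean. The one with 0.12 had a mean of 2.81, under the background level, and the others ran from 2.17 to 2.40.

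Snurf/Snrpn, a paternally expressed unit whose transcript encodes both a small nuclear protein and a splicing factor, fell from day 0. The annotation lists its probe sets with both names, so they were fitted in the added model that kept them. The brightest probe set read 9.39, 9.33 and 9.91 at day 0, 8.53, 9.28 and 8.11 on control day8, 9.03, 8.97 and 8.90 with BPA, and 8.81, 8.95 and 9.32 with NP. The control day8 arrays lay below the day 0 arrays, and both agents overlapped control day8. It fell by 0.90 ± 0.28 from day 0 (adjusted p = 0.023) and did not pass with BPA (0.32 ± 0.28, adjusted p = 0.45) or NP (0.38 ± 0.28, adjusted p = 0.409). Of the 5 probe sets past the filter, 4 fell from day 0, with differences of -1.41 to -0.43 over the 5, and 2 were called higher with each agent, with differences of 0.32 to 0.84 with BPA and 0.38 to 0.97 with NP. The log2 ratio of Ndn to the brightest Snurf/Snrpn probe set shifted by 3.17 ± 0.42, -2.11 ± 0.41 and -1.78 ± 0.51 without overlap. The probe set that names Snrpn alone lay below the filter and read 4.27, 4.88 and 3.58 at day 0 and 0.22, 1.03 and -0.55 on control day8.

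Ube3a, the ubiquitin ligase of Angelman syndrome that is maternally expressed in neurons and from both alleles elsewhere, read 10.31, 10.30 and 10.17 at day 0, 10.34, 10.53 and 10.11 on control day8, 10.09, 9.97 and 9.82 with BPA, and 10.13, 10.06 and 10.02 with NP. It was 0.37 ± 0.12 lower with BPA (adjusted p = 0.055), without overlap, and did not pass the test in any of the 3 comparisons. Its 6 probe sets past the filter ran from -0.76 to 1.77 from day 0, and the one with 1.77 had a mean of 3.27, under the background level. Magel2, a paternally expressed relative of Ndn, read 5.67, 5.25 and 5.66 at day 0, 6.22, 6.10 and 5.52 on control day8, 5.49, 5.64 and 4.61 with BPA, and 6.07, 6.13 and 5.69 with NP. Control day8 overlapped each other group. Magel2 changed by 0.42 ± 0.29 from day 0, -0.70 ± 0.29 with BPA and 0.02 ± 0.29 with NP, none of which passed.

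**Figure D3:**
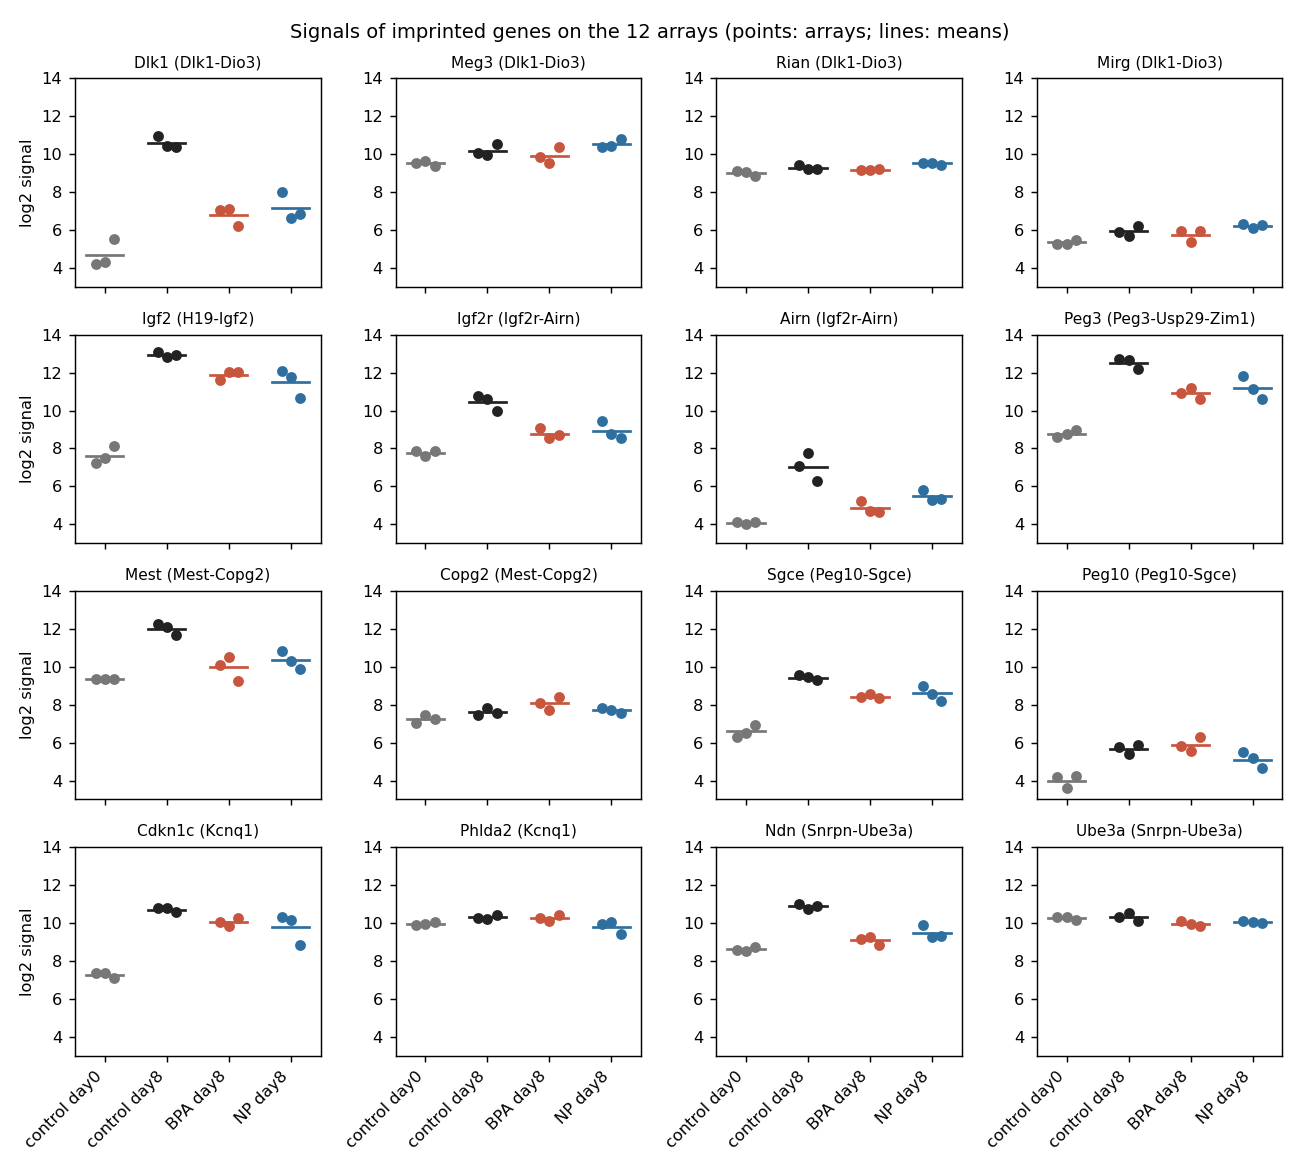
Log2 signal (y axis, the same range in each panel) of 16 imprinted genes on the 12 arrays in 4 groups (x axis); points are arrays and lines are group means. Dlk1 lies at 10.40 to 10.96 on control day8 and at no more than 8.01 elsewhere. Over all arrays Meg3 runs from 9.39 to 10.83, Rian from 8.84 to 9.55 and Copg2 from 7.04 to 8.38. Phlda2 runs from 9.41 to 10.44 and Ube3a from 9.82 to 10.53.

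Among the single loci, Plagl1, a paternally expressed zinc finger factor that slows the cell cycle and is known to regulate other imprinted genes, read 8.16, 8.12 and 8.43 at day 0, 12.57, 12.23 and 12.01 on control day8, 9.58, 9.73 and 9.02 with BPA, and 9.96, 9.40 and 9.27 with NP. Control day8 lay above every other array, day 0 lay lowest, and the agents overlapped each other. Plagl1 rose by 4.03 ± 0.24, or 16.3-fold (adjusted p = 5.47e-06), fell by 2.82 ± 0.24 with BPA (adjusted p = 0.000233) and fell by 2.73 ± 0.24 with NP (adjusted p = 0.000433). Its probe set also has the suffix x_at. Gnas, which encodes the stimulatory G protein alpha subunit and overlapping imprinted transcripts, read 10.57, 10.61 and 10.92 at day 0, 12.47, 12.27 and 12.22 on control day8, 11.22, 11.33 and 11.11 with BPA, and 11.57, 11.34 and 11.31 with NP. Day 0 was lowest and control day8 highest, with no overlap. Gnas rose by 1.62 ± 0.13 (adjusted p = 1.62e-05), fell by 1.10 ± 0.13 with BPA (adjusted p = 0.000686) and fell by 0.91 ± 0.13 with NP (adjusted p = 0.00275). Its 3 probe sets past the filter rose by 1.38 to 5.60 in group mean, and the transcript each one reads was not examined. The one with 5.60 had a mean of 3.44, near the background level.

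Slc38a4, a paternally expressed amino acid transporter of placenta and liver, read 9.64, 9.66 and 9.45 at day 0, 11.41, 11.21 and 11.10 on control day8, 10.77, 10.64 and 10.87 with BPA, and 10.64, 10.52 and 10.08 with NP. The order of the groups on this probe set was control day8, BPA, NP and day 0, with no overlap. The neighbouring agent groups touched at 10.64 as printed. The other Slc38a4 probe set past the filter (mean 9.79) differed from control day8 by 0.19 with BPA and -0.47 with NP. Slc38a4 rose by 1.66 ± 0.16 (adjusted p = 3.46e-05), was 0.48 ± 0.16 lower with BPA (adjusted p = 0.0529), which did not pass, and fell by 0.83 ± 0.16 with NP (adjusted p = 0.00909). Nnat, a paternally expressed proteolipid of developing brain, read 3.98, 3.72 and 4.13 at day 0, 5.42, 5.34 and 5.36 on control day8, 4.51, 5.04 and 4.09 with BPA, and 5.26, 4.86 and 4.83 with NP. Control day8 was highest, with BPA and day 0 overlapping. Nnat rose by 1.43 ± 0.22 (adjusted p = 0.000612), fell by 0.83 ± 0.22 with BPA (adjusted p = 0.0265) and was 0.39 ± 0.22 lower with NP (adjusted p = 0.284). Its BPA call ended without any control day8 array and without BPA day8 replicates 1 or 3 (changes -0.84 to -0.60, adjusted p 0.0533 to 0.0777). Neural markers summed to at most 464 on the day 8 arrays and 493 to 592 at day 0, and of 7 tested 0 rose and 2 fell from day 0 to control day8.

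Impact, a paternally expressed regulator of the translational stress response, was the 1 gene of the 30 tested that fell from day 0. The Snurf/Snrpn probe sets that fell were fitted only in the added model and are outside this count. It read 10.05, 10.03 and 10.43 at day 0, 9.65, 9.5 and 9.58 on control day8, 9.60, 9.60 and 9.71 with BPA, and 9.63, 9.74 and 9.67 with NP. Day 0 lay above all day 8 arrays, which overlapped one another. Impact fell by 0.59 ± 0.12 (adjusted p = 0.0024), a call that ended when its probe sets were averaged, and did not pass with BPA (0.06 ± 0.12) or NP (0.11 ± 0.12). Grb10, an adaptor that restrains insulin and IGF receptor signalling and is maternally expressed in most tissues and paternally in neurons, changed by 0.33, -0.27 and 0.03 (each ± 0.19), and none passed. Nap1l5, a paternally expressed relative of nucleosome assembly proteins near the background level, changed by 0.47, -0.68 and -0.56 (each ± 0.58), and none passed.

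Between the agents, 0 of the 30 imprinted genes passed the test in NP day8 against BPA day8 by limma, and the same count came from each of the 22 alternative settings run. Over all genes 0.00765% were called, which was 1 gene. At an unadjusted p under 0.05, 8 of the 30 passed, beside 1095 of the 13067 genes tested. Changes of the 30 ran from -0.80 to 1.30 with a median of 0.18. The 95% intervals of the difference, NP minus BPA, were -0.63 to 1.41 for Dlk1, -0.44 to 0.63 for Plagl1, -0.43 to 0.78 for Igf2r and -0.39 to 0.95 for Peg3, so changes of about these sizes are not distinguished here. Asb4 was 1.30 ± 0.57 higher with NP (interval 0.02 to 2.58, adjusted p = 0.589). Peg10 was 0.79 ± 0.28 lower with NP (interval -1.41 to -0.17, adjusted p = 0.501). The maternally expressed RNAs Meg3, Rian and Mirg were higher with NP by 0.61 ± 0.23, 0.32 ± 0.10 and 0.47 ± 0.19. None of them passed the threshold (adjusted p = 0.525, 0.468 and 0.541). No doses are given, so whether the agents were compared at matched exposure is not known.

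Set against day 0, 13 of the 30 imprinted genes were higher with BPA and 1, Impact, was lower (46.7% called, against 33.6% of all genes, 21.7% higher and 11.9% lower), with a median of 0.70 and 9 changes of at least 2-fold, against 13% of all genes. With NP, 21 were higher and 1, again Impact, was lower (73.3% called, against 32.1% of all genes, 20.2% higher and 11.9% lower), with a median of 0.92 and 14 changes of at least 2-fold, against 12.3%. These comparisons share the control day0 arrays, and the difference between the counts was not tested. In the Snrpn-Ube3a cluster 0 of 5 genes passed with BPA and 3 of 5 with NP, where Ndn was 0.48 ± 0.18 (adjusted p = 0.0668) and 0.87 ± 0.18 (adjusted p = 0.00565) above day 0. Igf2 remained 4.27 ± 0.35 above day 0 with BPA and 3.89 ± 0.35 with NP, with adjusted p-values of 4.31e-05 and 6.75e-05. Cdkn1c was 2.78 ± 0.33 and 2.51 ± 0.33 above day 0, with adjusted p-values of 0.000299 and 0.000573. Plagl1 was 1.21 ± 0.24 and 1.30 ± 0.24 above it, with adjusted p-values of 0.00434 and 0.00322. Mest was 0.60 ± 0.33 above day 0 with BPA, which did not pass (adjusted p = 0.192), and 0.97 ± 0.33 with NP (adjusted p = 0.0471). That last call ended without any control day0 array, control day8 replicates 1 or 2, BPA day8 replicate 1 or NP day8 replicates 1 or 2 (changes 0.72 to 0.98, adjusted p 0.0584 to 0.159).

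Genes that set or keep imprints were taken as a list of 26, of which 24 were tested. From day 0 to control day8, 14 fell and 5 rose (79.2% called, against 48.7% of all genes), with a median of -0.47. Tet1, an enzyme that oxidises methylated cytosine, fell by 3.30 ± 0.22, and Dnmt3l, the cofactor of new DNA methylation, fell by 2.46 ± 0.39. Zfp57, which holds methylation at imprinting control regions, fell by 1.98 ± 0.22, and the methyltransferase Dnmt3b fell by 1.62 ± 0.14. Against control day8, 12 rose and 1, the zinc finger gene Zfp445, fell with BPA (54.2% called, against 22.2% of all genes), with a median of 0.31. With NP 9 rose and 0 fell (37.5%, against 14.2%), with a median of 0.19. With BPA, Dnmt3l rose by 2.92 ± 0.39, Tet1 rose by 1.62 ± 0.22, Dppa3, which protects maternal methylation in the early embryo, rose by 1.5 ± 0.29, and Dnmt3b rose by 1.46 ± 0.14. With NP, Dnmt3l rose by 2.79 ± 0.39, Tet1 by 1.52 ± 0.22, Dnmt3b by 1.47 ± 0.14 and Dppa3 by 1.17 ± 0.29. Dnmt1, which copies methylation at replication, did not pass the test in any of these comparisons (0.15, 0.08 and -0.11, each ± 0.16). Several of these genes are also known to be high in pluripotent cells, and pluripotent markers fell from day 0 and were higher with each agent than on control day8. Their part in these values was not tested.

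**Figure D4:**
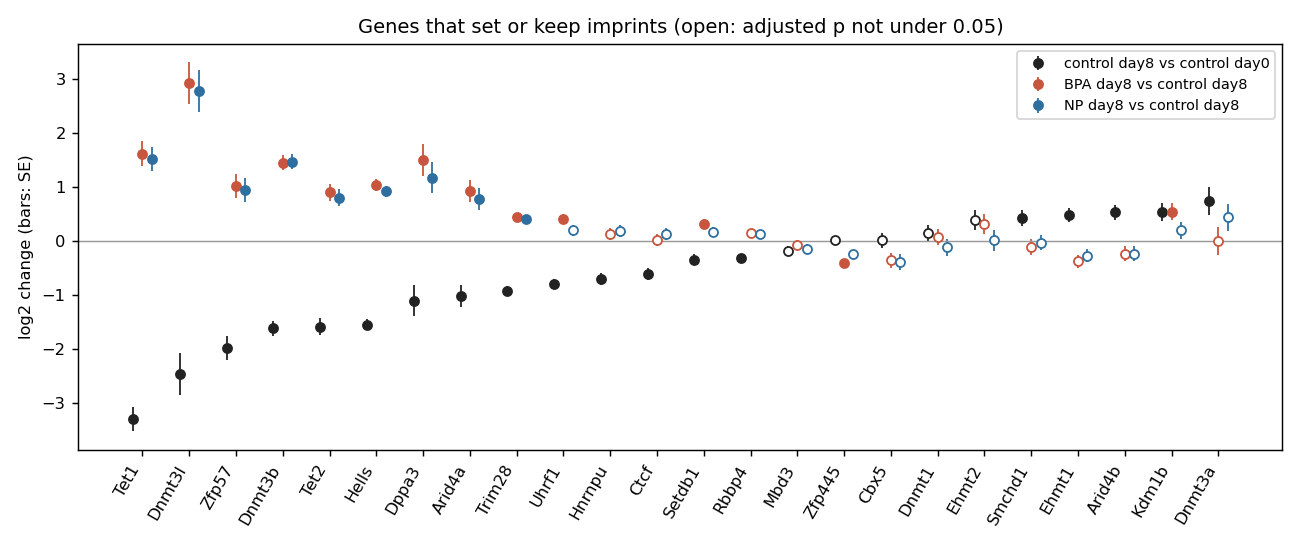
Log2 change (y axis) with its standard error for the 24 tested genes that set or keep imprints (x axis, ordered by their change from day 0), in control day8 against control day0, BPA day8 against control day8 and NP day8 against control day8. Filled points passed an adjusted p of 0.05; Tet1 lies at -3.30 from day 0 and at 1.62 and 1.52 with the agents, and Dnmt1 is open in each comparison.

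A list of 20 other IGF signalling genes, 19 of them tested, includes receptors, their substrates and the binding proteins that hold IGF2 outside the cell. From day 0, 10 rose and 2 fell (63.2% called, against 48.7% of all genes, median 1.11). The binding proteins Igfbp1, Igfbp5 and Igfbp4 rose by at least 4.40, by 6.38 ± 0.57 and by 3.93 ± 0.27, while Igfbp7 fell by 3.96 ± 0.40. With BPA 7 fell and 1 rose (42.1%, against 22.2%, median -0.97), and with NP 4 fell and 1 rose (26.3%, against 14.2%, median -0.66). With BPA the receptor substrate Irs4 fell by 2.87 ± 0.42, Igfbp5 fell by 2.85 ± 0.57, the growth factor Igf1 fell by at least 1.91 and Igfbp4 fell by 2.33 ± 0.27. With NP Igfbp4 fell by 2.25 ± 0.27, Igfbp5 fell by 2.10 ± 0.57, Irs1 fell by 1.41 ± 0.31 and the receptor Igf1r fell by 0.95 ± 0.23. Irs4 with NP was at -0.66 ± 0.42, which did not pass.

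A list of 50 other imprinted genes, of which 39 were tested, did not lean one way from day 0: 10 rose and 10 fell (51.3% called, against 48.7% of all genes), with a median of 0.13. Ascl2, a trophoblast factor, rose by at least 2.14, Phactr2 rose by 2.56 ± 0.37 and the protease inhibitor Tfpi2 fell by at least 2.44. With BPA 6 rose and 8 fell (35.9%, against 22.2%, median 0.06), and with NP 4 rose and 5 fell (23.1%, against 14.2%, median -0.01). Dcn, a matrix proteoglycan that also stands among the feeder markers, fell by 2.80 ± 0.48 with BPA and by 2.82 ± 0.48 with NP. Phactr2 fell by 1.60 ± 0.37 and by 1.78 ± 0.37 in turn. Atp10a rose by 1.93 ± 0.49 and by 1.87 ± 0.49, and the calcitonin receptor gene Calcr rose by at least 1.27 and at least 1.93. The 93 tested genes that flank the clusters and single loci were 3 on each side of each, counted once where shared. They were on neither imprinted list, and whether any is imprinted was not checked further. These genes also split: 20 rose and 21 fell from day 0 (44.1% called, median 0.10). With BPA 10 of these rose and 8 fell (19.4%), and with NP 8 rose and 6 fell (15.1%). Their shares lay near those of all genes, 48.7%, 22.2% and 14.2% in turn. Among them Igf2os, which is antisense to Igf2 and was singled out after its value was seen, rose by 5.47 from day 0.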

How the data were processed

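RNA abundance was measured on 12 Affymetrix arrays in 4 groups of 3 taken from the labels. The authors deposited a log2 signal for each probe set, computed with MAS5 per the submitters' processing notes; the version and scaling target are not given in the sources used here. On every array the mean of the linear signals without the top and bottom 2% was 100, so no further scaling was applied.

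Probe sets were named from the platform annotation and RefSeq (GRCm38.p6) by Entrez identifier. Of 45101 probe sets, 64 were controls, 34945 named 1 gene, 932 named several and 9224 named none. The 60% with the highest means were kept (27023), and 1 probe set per gene, that with the highest mean, left 13067 genes. limma 3.58.1 in R 4.3.3 fitted group means over all 12 arrays (8 residual and 1.57 prior degrees of freedom) with 2-sided moderated tests, Benjamini-Hochberg adjustment in each comparison and a threshold of 0.05. Where a group mean lay under the background level (3 TrpnX probe sets, 36 values), array values below that level were raised to it before averaging, and the difference of the averages is given as a minimum ("at least"). Probe sets naming several genes were fitted in an alternative added after the data were seen.

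The imprinted genes and all lists were chosen with earlier results of these data known. Genes with full values were those past the threshold by at least 2-fold in a comparison or sharing a cluster with another listed gene; from each other list up to 4 called genes with the largest change were named, and values of Impact, Grb10, Nap1l5, Dnmt1, Zfp445 and Igf2os were added after they were seen. Replicate numbers did not pair arrays (correlations of deviations between -0.01 and 0.081). Alternatives were other scalings, filters, probe set choices, a pseudocount of 16, other variance priors, the replicate number as a block and each array left out. The script was tested on simulated data. Plots used Python 3.11.15 with matplotlib 3.10.9.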

Additional observations from a re-analysis of the deposited data

How the results depend on the processing

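The counts of imprinted genes past the threshold kept within 1.5 times of their reported values under all 22 alternatives, with the exception of NP day8 against control day8. There the reported 13 became 7 with only the compared groups in the fit and ran from 7 to 14 with single arrays left out; fewer arrays enter each of these fits. No change of a called gene reversed. With the replicate number as a block the counts were 21 from day 0 to control day8, 13 with BPA and 11 with NP, where the calls of Igf2 and Sgce ended; the numbers do not pair the arrays. The genes called in every setting were 17 of 21 from day 0, 11 of 12 with BPA and 5 of 13 with NP. Averaging the probe sets of a gene ended the calls of Meg3, Mirg, Impact and Ppp1r9a from day 0 and of Igf2 with NP. A pseudocount of 16, which shrinks changes of low signals, moved values of Asb4, Nnat, Peg10, Peg12 and Airn by over 1.5 times in at least 1 comparison, and averaging probe sets did so for Gnas, Sgce, Meg3, Mirg and Impact, and quantile normalization for Mirg. The array reads no allele, and signals near the background level, as for Slc22a18 and Nap1l5, have wide intervals.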
